A study of Mus musculus with 4 samples.

Results

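The BCL2 family genes were followed in mouse invariant natural killer T (iNKT) cells that carried a T cell receptor α chain transgene and in wild-type (WT) iNKT cells. The family was listed as 10 genes, 4 anti-apoptotic (Bcl2, Bcl2l1, Mcl1 and Bcl2a1a) and 6 pro-apoptotic (Bax, Bak1, Bcl2l11, Bad, Pmaip1 and Bbc3), and a gene was taken from the probe sets that the platform annotation names with its symbol alone. This gave values for 9 of the 10 members, among 22180 genes named in the same way. Bax has no value below and was not analysed here. All 9 lay above the filter on dim genes on all 4 arrays, and that filter kept 13602 genes for testing.

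The series holds 4 Affymetrix whole-transcript arrays of total RNA, 2 from iNKT cells of CD4-Vα14Tg mice and 2 from iNKT cells of WT controls. In CD4-Vα14Tg mice the CD4 promoter drives the Vα14 transgene, so it is expressed from the stage at which that promoter is active in thymocytes. The comparison asked which transcripts differ between iNKT cells with and without the transgene. Strain, age, sex, organ and the sort gate are not stated in the labels, and no label states that the 2 arrays of a genotype came from separate animals, so the tests measure the spread between these arrays, which may be technical.

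BCL2 family proteins decide whether the outer membrane of the mitochondrion stays intact. Anti-apoptotic members hold the effectors BAX and BAK in check, BH3-only members such as BIM (Bcl2l11), BAD, NOXA (Pmaip1) and PUMA (Bbc3) bind the anti-apoptotic members or the effectors, and once the effectors form pores, cytochrome c leaves the mitochondrion and caspases are activated. In the thymus BIM is known for its part in the death of cells that receive strong receptor signals, while BCL2 and MCL1 keep mature T cells alive under interleukin-7 and interleukin-15.

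Of the transcripts of the 9 members, Bcl2a1a was lower in CD4-Vα14Tg cells past the test, 2.00-fold below its WT level, and 0 were higher. Bcl2 and Bcl2l11 lay lower by similar amounts, 0.77 and 0.79 on the log2 scale, without passing, and the other 6 differed by 0.30 or less in either direction. A gene was called when its p-value from limma's moderated test, adjusted by Benjamini-Hochberg over all 13602 genes, was under 0.05. By this rule 1 of the 9 members was called, against 1.95% of all genes tested, 1.34% being called lower and 0.610% higher. In bulk RNA a smaller share of cells of one type and less RNA per cell cannot be told apart, and this holds for every difference given.

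The 4 anti-apoptotic members had a median log2 difference (CD4-Vα14Tg minus WT) of -0.52 and all 4 differences were negative. The 5 pro-apoptotic members with values had a median of -0.17, with 4 negative and 1 positive. Over all genes tested the median was -0.022 and 56.0% were negative. The arrays of the genotypes did not overlap, with CD4-Vα14Tg the lower, for 7 of the 9 members, all 4 anti-apoptotic ones among them, against 23.4% of all genes. No member had non-overlapping arrays with CD4-Vα14Tg the higher, against 15.7% of all genes. Without adjustment, 3 members had a limma p under 0.05 and were lower, against 7.04% of all genes. The members were chosen with earlier results of these data known, so these counts describe them and are no test.

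**Figure D1:**
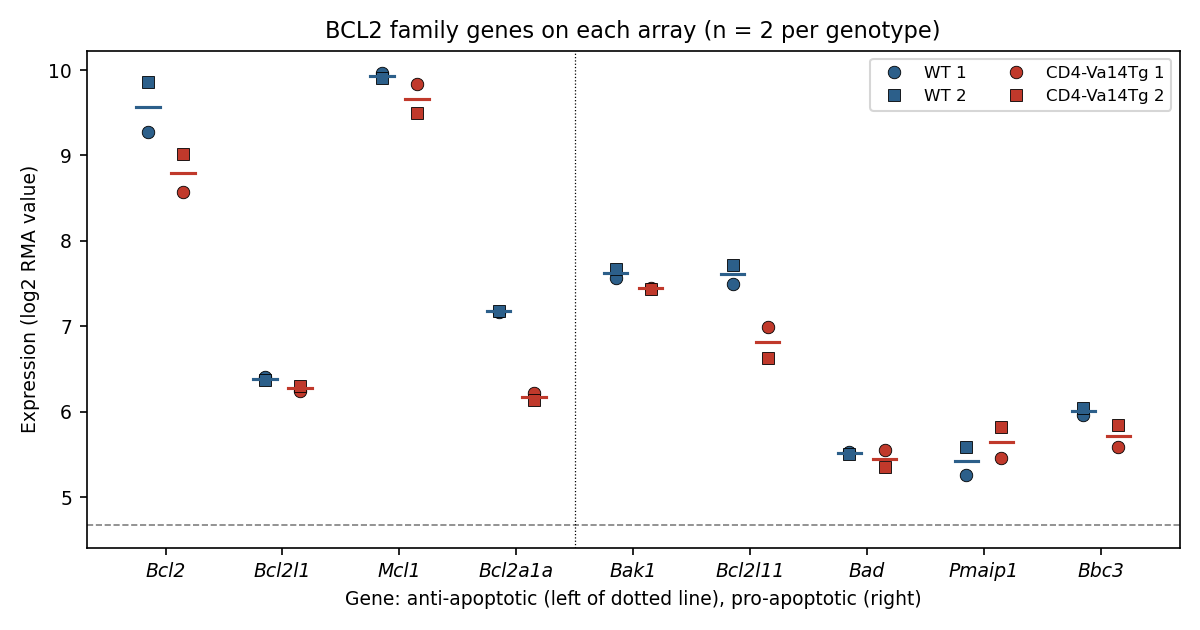
Expression of the 9 BCL2 family genes with a value, on the log2 scale (vertical axis), for each array: blue points are WT, red points CD4-Vα14Tg, circles replicate 1, squares replicate 2, short bars the mean of 2 arrays, and the dashed line the mean over arrays of the 40th percentile used as filter. The red points of Bcl2a1a, near 6.18, lie clear of the blue points near 7.18, while those of Bad and Pmaip1 overlap; levels are not comparable between genes.

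Among the anti-apoptotic members, Bcl2a1a encodes A1 (BFL-1), a short-lived protein induced by NF-κB signals in lymphocytes. Its probe set read 6.22 and 6.13 on the CD4-Vα14Tg arrays and 7.17 and 7.18 on the WT arrays (log2 values). Both transgenic arrays thus lay about 1 unit below both WT arrays, with little spread within either genotype. The means were 6.18 ± 0.07 and 7.18 ± 0.01 (SD, n = 2 each), so that Bcl2a1a fell by 1.00 on the log2 scale (95% interval -1.27 to -0.72, limma adjusted p = 0.00873). When any 1 array was left out the difference stayed between -1.04 and -0.95, with limma adjusted p from 0.0288 to 0.0416.

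The mouse genome holds several near-identical copies of this gene, so a probe can read more than one of them. Further probe sets are annotated to the copies jointly and were left out of the gene-level fit. They were tested with all named probe sets in a fit added after the data were seen. The probe set shared by Bcl2a1b and Bcl2a1a read 7.31 and 7.41 in CD4-Vα14Tg against 8.61 and 8.53 in WT. Its difference was -1.21 (95% interval -1.49 to -0.93, limma adjusted p = 0.00247). The probe set shared by Bcl2a1d, Bcl2a1a and Bcl2a1b read 8.02 and 8.01 against 9.07 and 9.16, a difference of -1.10 (95% interval -1.37 to -0.82, limma adjusted p = 0.00384). All 3 probe sets that name Bcl2a1a were therefore lower, by 2.00-fold to 2.32-fold, and they do not show which copy the RNA came from. A further copy with a probe set of its own, Bcl2a1c, read 5.26 and 5.62 against 5.84 and 5.99. Its arrays did not overlap either, and its difference of -0.48 (95% interval -0.84 to -0.12) did not pass (limma adjusted p = 0.244).

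**Figure D2:**
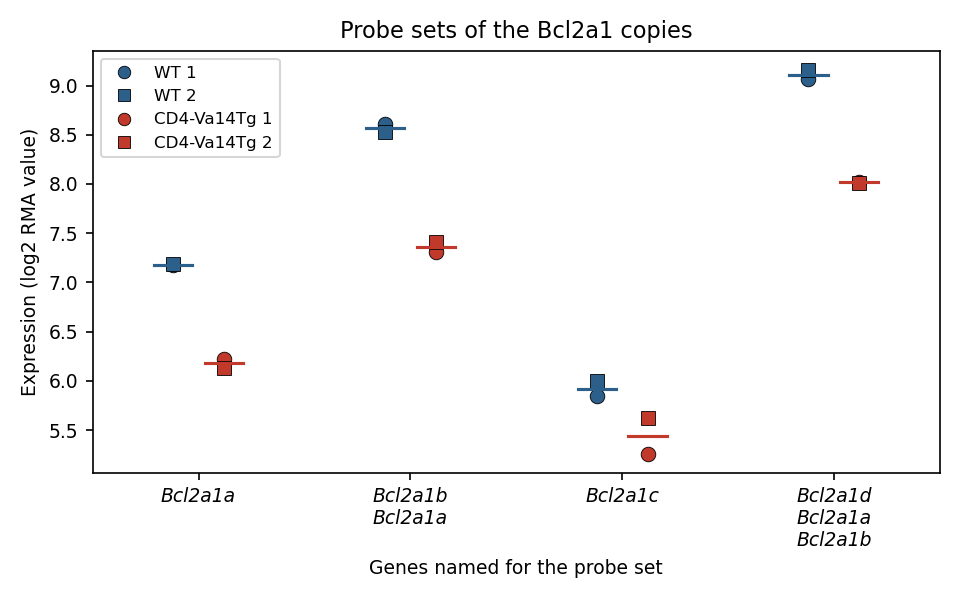
Log2 expression (vertical axis) of the 4 probe sets annotated to copies of Bcl2a1, labelled with the genes they name; blue points are WT arrays, red points CD4-Vα14Tg arrays, circles replicate 1, squares replicate 2 and short bars means of 2 arrays. In each probe set both red points lie below both blue points, by 1.00 to 1.21 between means in the 3 that name Bcl2a1a and by 0.48 in Bcl2a1c.

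The copies are alike upstream of their starts as well, which is why their sequences are set side by side. Each line gives the 250 bases before the annotated start in RefSeq (GRCm38.p6), 5′ to 3′ on the strand of the gene, with the longest run common to all 3, of 84 bases, in capitals. Bcl2a1a lies at chr9:88956670-88956919 (plus strand), Bcl2a1b at chr9:89199023-89199272 (plus strand) and Bcl2a1d at chr9:88731851-88732100 (minus strand).
Bcl2a1a: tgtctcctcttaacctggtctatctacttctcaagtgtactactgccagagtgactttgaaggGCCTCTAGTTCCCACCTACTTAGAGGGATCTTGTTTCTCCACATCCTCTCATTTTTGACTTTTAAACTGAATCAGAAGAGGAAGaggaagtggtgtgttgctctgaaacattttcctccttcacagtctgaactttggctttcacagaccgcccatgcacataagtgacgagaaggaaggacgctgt
Bcl2a1b: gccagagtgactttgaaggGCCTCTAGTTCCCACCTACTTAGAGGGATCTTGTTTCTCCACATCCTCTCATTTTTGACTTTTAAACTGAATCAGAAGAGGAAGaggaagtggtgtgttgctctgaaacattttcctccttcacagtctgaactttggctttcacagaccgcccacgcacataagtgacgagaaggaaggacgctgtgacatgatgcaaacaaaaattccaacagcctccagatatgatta
Bcl2a1d: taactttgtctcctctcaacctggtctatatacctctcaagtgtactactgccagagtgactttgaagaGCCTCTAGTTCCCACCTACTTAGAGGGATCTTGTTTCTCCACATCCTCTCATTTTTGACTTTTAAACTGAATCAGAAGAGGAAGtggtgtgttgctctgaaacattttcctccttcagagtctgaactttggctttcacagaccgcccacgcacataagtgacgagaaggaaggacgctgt
Aligned without penalty at the ends, the windows of Bcl2a1a and Bcl2a1b were identical at 205 of 206 positions, those of Bcl2a1a and Bcl2a1d at 238 of 250, and those of Bcl2a1b and Bcl2a1d at 198 of 206. The shared run begins 187 bases before the start of Bcl2a1a, 231 before that of Bcl2a1b and 181 before that of Bcl2a1d, since the annotated starts are not at the same place. On either strand, the κB consensus was found in none of the 3 windows and in 7.25% of the 32841 windows of this length in the table.

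Bcl2, the founding anti-apoptotic gene of the family, read 8.57 and 9.02 in CD4-Vα14Tg cells and 9.27 and 9.86 in WT cells. Every transgenic array was below every WT array, but the 2 arrays of a genotype were 0.44 and 0.58 apart. In both genotypes the second replicate was the higher one. The means were 8.79 ± 0.31 and 9.56 ± 0.41, a difference of -0.77 (95% interval -1.30 to -0.24) that did not pass (limma adjusted p = 0.191). Leaving out WT replicate 2 gave -0.48, and leaving out WT replicate 1 gave -1.06. A dimmer Bcl2 probe set, above the filter on 1 array, read 4.36 and 4.32 against 4.81 and 4.61.

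Mcl1, whose protein is needed for the survival of most lymphocytes and turns over within a short time, read 9.84 and 9.49 in CD4-Vα14Tg cells and 9.96 and 9.91 in WT cells. The groups did not overlap, although the upper transgenic array was close to the WT arrays. The difference was -0.27 (95% interval -0.61 to 0.07, limma adjusted p = 0.586), and it was -0.10 without CD4-Vα14Tg replicate 2. A second Mcl1 probe set read 6.12 and 5.92 against 6.19 and 5.88, with overlapping arrays and a difference of -0.02, so the probe sets of this gene did not give the same picture.

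Bcl2l1 encodes BCL-XL, the anti-apoptotic member that immature double-positive thymocytes rely on. It read 6.25 and 6.30 in CD4-Vα14Tg cells and 6.41 and 6.37 in WT cells, a small gap between groups with tight replicates. The difference was -0.11 (95% interval -0.38 to 0.16, limma adjusted p = 0.839). Beyond the listed members, Bcl2l2, the gene of the anti-apoptotic protein BCL-W, had a difference of 0.16 (95% interval -0.15 to 0.46, limma adjusted p = 0.773), and Bcl2l10 lay below the filter.

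On the pro-apoptotic side, Bak1 encodes BAK, which forms pores in the mitochondrial membrane. It read 7.45 and 7.44 in CD4-Vα14Tg cells and 7.57 and 7.67 in WT cells. The arrays did not overlap, and the difference of -0.17 (95% interval -0.45 to 0.10) did not pass (limma adjusted p = 0.686). Bok, a relative of the effectors, had a difference of 0.12 (95% interval -0.16 to 0.40, limma adjusted p = 0.836).

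Bcl2l11 encodes BIM, the BH3-only protein that can bind all anti-apoptotic members. It read 6.99 and 6.63 in CD4-Vα14Tg cells and 7.49 and 7.72 in WT cells. All transgenic values were below the WT values, with the nearest arrays 0.50 apart. The means were 6.81 ± 0.25 and 7.61 ± 0.16, and the difference of -0.79 (95% interval -1.17 to -0.42) was not called (limma adjusted p = 0.0640). Without 1 array it ranged from -0.97 to -0.61, with limma adjusted p from 0.0545 to 0.248.

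Forkhead box O (FOXO) factors are known activators of Bcl2l11, and the window before its first annotated start is shown because it carries a FOXO motif. The letters searched were TGTTTAC, on both strands. The window lies at chr2:128125788-128126037 (GRCm38.p6, plus strand, RefSeq), and the match, in capitals as its complement GTAAACA, begins 227 bases before the start.
Bcl2l11: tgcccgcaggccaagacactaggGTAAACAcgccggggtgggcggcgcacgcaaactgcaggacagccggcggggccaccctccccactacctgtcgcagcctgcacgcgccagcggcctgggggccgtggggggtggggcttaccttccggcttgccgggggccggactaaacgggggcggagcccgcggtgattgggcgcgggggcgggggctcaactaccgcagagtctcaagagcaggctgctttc
The same letters were found in 3.17% of the 32841 windows of this length, in 1 of the 2 windows of Bcl2l11 and in 1 of the 3 windows of Bbc3. Windows of 250 bases were used for 9 of the 10 members, Pmaip1 being left out, and TGTTTAC was in no window of the other 7. The κB consensus was in 1 of the 3 windows of Bcl2l1 and 1 of the 3 of Bbc3, and the STAT motif TTCNNNGAA, present in 7.02% of all windows, was in none of those of the 9 members. These are matches of letters, with no measurement of binding.

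Bbc3, the gene of PUMA, which p53 and FOXO factors induce, read 5.58 and 5.84 in CD4-Vα14Tg cells and 5.97 and 6.05 in WT cells. The groups did not overlap, and the difference of -0.30 (95% interval -0.61 to 0.02) did not pass (limma adjusted p = 0.470). It was -0.17 with CD4-Vα14Tg replicate 1 left out and -0.42 with CD4-Vα14Tg replicate 2 left out. Pmaip1, the gene of NOXA, a BH3-only protein that binds MCL1 and A1, read 5.46 and 5.83 against 5.26 and 5.59. Here the arrays overlapped, and the second replicate was the higher one in both genotypes. Its difference of 0.22, the one positive value among the members, did not pass (95% interval -0.19 to 0.63, limma adjusted p = 0.756), and with 1 array left out it ran from 0.04 (CD4-Vα14Tg replicate 2) to 0.41 (CD4-Vα14Tg replicate 1).

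Bad, the gene of a BH3-only protein that growth factor signals inactivate by phosphorylation, read 5.55 and 5.35 against 5.54 and 5.50, with overlapping arrays. The difference was -0.07 (95% interval -0.36 to 0.23, limma adjusted p = 0.937), and it was 0.03 without CD4-Vα14Tg replicate 2. The probe set annotated to Gpr137 and Bad together differed by 0.0035. Bad, Pmaip1 and Bbc3 all read between 5.26 and 6.05, not far above the 40th percentile of the arrays (4.65 to 4.69), a range in which differences are compressed. The same limit holds for further genes named here, such as Bcl2a1c, Bmf, Bnip3 and Sesn2, which had values in or below this range.

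**Figure D3:**
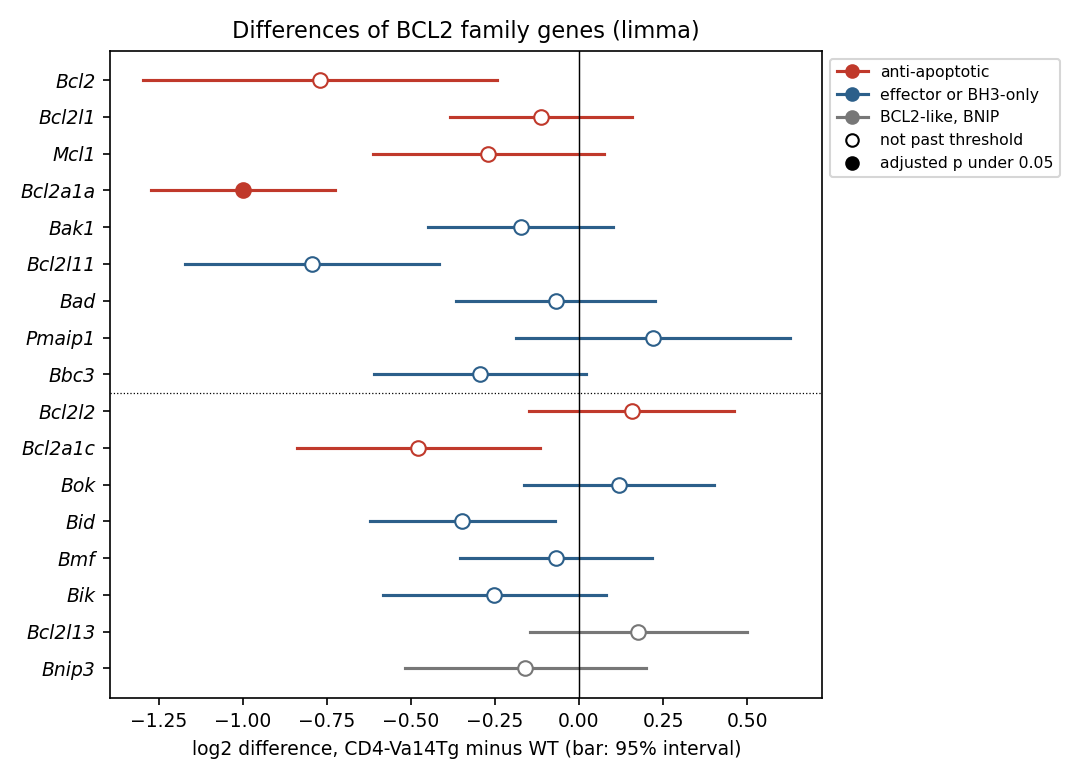
Differences between CD4-Vα14Tg and WT arrays (horizontal axis, log2, CD4-Vα14Tg minus WT) for the 9 members above the dotted line and 8 further BCL2 family genes below it, with 95% intervals from limma as bars; filled points passed an adjusted p of 0.05. Bcl2a1a, which fell by 1.00, is the filled point, Bcl2 at -0.77 and Bcl2l11 at -0.79 have intervals below 0 without passing, and most other intervals span 0.

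Of 16 further family genes listed, 12 had a probe set of their own and 8 were tested, besides Bcl2l2, Bcl2a1c and Bok the following 5. Bid, whose protein links death receptors to mitochondria after cleavage by caspase-8, was 5.88 and 5.96 in CD4-Vα14Tg cells and 6.24 and 6.29 in WT cells. Its groups did not overlap, and its difference of -0.35 (95% interval -0.62 to -0.07) did not pass (limma adjusted p = 0.271). The BH3-only genes Bik and Bmf differed by -0.25 and -0.07. Bcl2l13 and Bnip3, whose proteins take part in the removal of mitochondria, differed by 0.18 and -0.16. The number of these 8 genes called by limma was 0, against 1.95% of all genes tested. At an unadjusted p under 0.05, 2 were lower, against 7.04% of all genes, and 0 were higher. The median difference of the 8 was -0.11.

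Downstream of the mitochondrion, the apoptosome, caspase and inhibitor-of-apoptosis genes had differences on both sides of 0. Of 18 listed, 16 were tested, with 9 positive and 7 negative differences, a median of 0.01 and a range from -0.28 to 0.15. By limma 0 were called, against 1.95% of all genes tested. The unadjusted p was under 0.05 for 0, where 7.04% of all genes were lower at such a p. The 2 genes with the largest test statistics were Endog, a mitochondrial nuclease, at -0.28 and Htra2, a mitochondrial protease, at -0.12 (limma adjusted p = 0.429 and 0.860).

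In the death receptor pathway, which reaches the BCL2 family through Bid, 1 of 8 tested genes fell and 0 rose, with a median difference of -0.12. Of all genes tested, 1.34% were called lower and 0.610% higher. The gene that fell was Fasl, the ligand of the death receptor FAS, at 7.17 and 7.26 in CD4-Vα14Tg cells against 8.21 and 8.78 in WT cells. Both transgenic arrays lay about 1 unit or more below the lower WT array. The difference was -1.28, or 2.43-fold (95% interval -1.73 to -0.83, limma adjusted p = 0.0215). The call was lost when either transgenic array was left out (limma adjusted p = 0.0769 without replicate 1, 0.0610 without replicate 2).

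Cytokine receptors and STAT5, which sustain Bcl2 and Mcl1 in T cells, showed 1 fall and 0 rises among 7 tested genes, with a median of 0.04. The shares over all genes tested were 1.34% called lower and 0.610% called higher. Il2rb, the β chain shared by the interleukin-2 and interleukin-15 receptors, read 10.5 and 10.7 against 11.3 and 11.5, without overlap. It fell by 0.80 on the log2 scale (limma adjusted p = 0.0427), but the call was lost without any 1 of the arrays (limma adjusted p from 0.0591 to 0.179), when dim genes were kept (0.0575) and after a further quantile normalization (0.0674). Il7r, the interleukin-7 receptor α chain, read 11.6 and 11.9 against 11.5 and 11.8 and differed by 0.04, and Stat5b differed by 0.38 (limma adjusted p = 0.225); both are named here after their values were seen.

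The NF-κB pathway induces Bcl2a1a, and its list, chosen with earlier results of these data known, holds subunits, inhibitors and targets. The tested genes of this list all lay lower in CD4-Vα14Tg cells without any passing the test. All 10 tested genes had a negative difference, from -0.79 to -0.05 with a median of -0.47, and the arrays of 7 did not overlap, where 56.0% of all genes tested were negative and 23.4% were lower without overlap. By limma 0 were called, against 1.95% of all genes tested. An unadjusted p under 0.05 was reached by 6, against 7.04% of all genes that were lower at such a p. Among the subunits, Rel, Relb and Nfkb2 had overlapping arrays, with differences of -0.17, -0.05 and -0.44. Rela differed by -0.32 without overlap, and Nfkb1 had no value. Whether the list has a part in the difference of Bcl2a1a was not tested. Nfkbid, an atypical inhibitor of NF-κB, read 8.98 and 8.89 against 9.46 and 9.57, a difference of -0.58 (limma adjusted p = 0.0678). Its limma adjusted p was 0.0433 with trend and robust options and 0.287 with WT replicate 2 left out. Icam1, an adhesion molecule and NF-κB target, read 7.83 and 7.35 against 8.53 and 8.22, a difference of -0.79 (limma adjusted p = 0.115). For both genes the transgenic arrays lay below the WT arrays.

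Targets of p53, which drives Bbc3 and Pmaip1, had 9 negative differences among 10 tested genes and a median of -0.15. Of all genes tested 56.0% were negative. By limma 0 were called, against 1.95% of all genes tested. At an unadjusted p under 0.05, 4 were lower, against 7.04% of all genes tested. Sesn2, a stress-induced regulator of mTORC1, read 5.03 and 5.04 against 5.65 and 6.06 (difference -0.82, limma adjusted p = 0.0536), and it passed under 5 of 12 alternatives, such as without WT replicate 1 at -1.03 (limma adjusted p = 0.0250). With WT replicate 2 left out it was -0.62 (limma adjusted p = 0.185). Cdkn1a, the gene of the cell cycle inhibitor p21, read 7.12 and 6.17 against 7.79 and 7.37 (difference -0.94, limma adjusted p = 0.234), and its transgenic arrays were 0.95 apart. It passed without CD4-Vα14Tg replicate 1 at -1.41 (limma adjusted p = 0.0282), and was at -0.47 without CD4-Vα14Tg replicate 2 (limma adjusted p = 0.500).

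FOXO, AKT and PIM genes, which act on Bcl2l11, Bbc3 and Bad, went both ways, with 3 positive and 6 negative differences among 9. Their median was -0.07, and 0 were called by limma, against 1.95% of all genes tested. The unadjusted p was under 0.05 for 1 that was higher and for 1 that was lower, the latter against 7.04% of all genes tested. The share of all genes higher at such a p was not computed, so counts of higher genes here have nothing to be set against. Foxo1 read 9.26 and 9.42 in CD4-Vα14Tg cells and 8.79 and 8.72 in WT cells, with every transgenic array the higher (difference 0.58, limma adjusted p = 0.0721). It passed with trend and robust options (limma adjusted p = 0.0483), but the mean of its probe sets differed by 0.24 (limma adjusted p = 0.486). Pim2, a survival kinase, read 7.06 and 7.03 against 7.45 and 7.46 (difference -0.41, limma adjusted p = 0.171). Of 6 tested genes that control the turnover of MCL1 protein, 0 were called by limma, against 1.95% of all genes tested. At an unadjusted p under 0.05, 1 of them was higher, and their median was -0.02. Fbxw7 and Btrc, which encode substrate receptors of ubiquitin ligases, differed by 0.33 and -0.23 (limma adjusted p = 0.400 and 0.556).

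**Figure D4:**
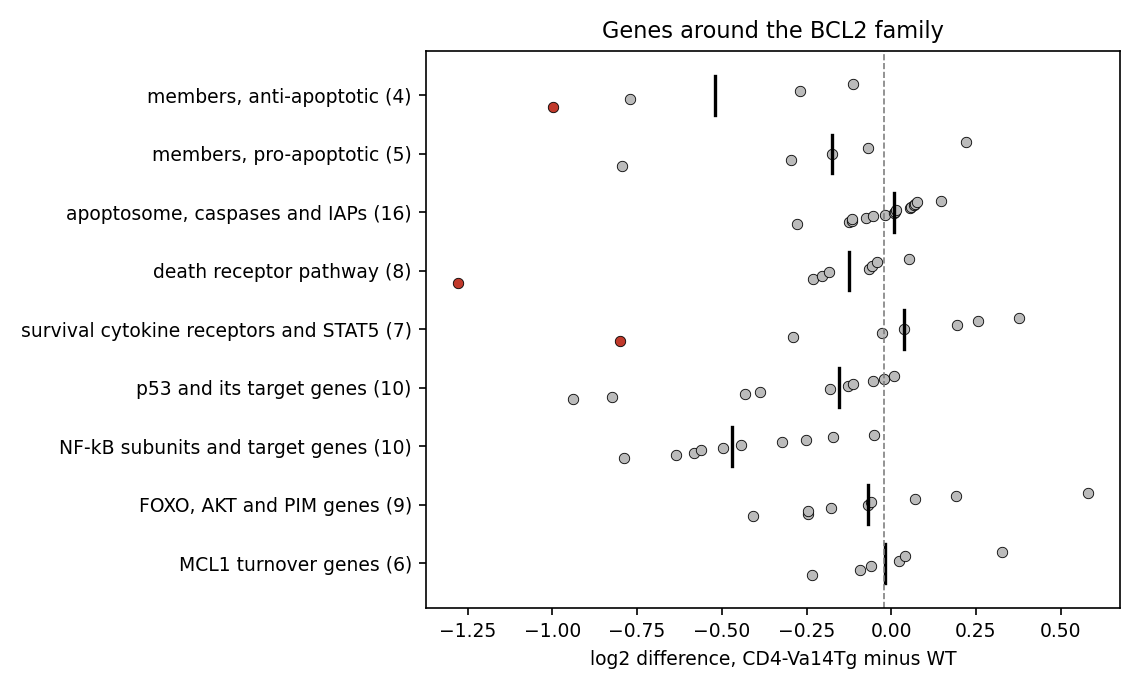
Differences between CD4-Vα14Tg and WT arrays (horizontal axis, log2) for each tested gene of the 2 groups of members and of 7 lists of genes around them, with the number tested in brackets; black bars are medians, red points passed an adjusted p of 0.05 and the dashed line is the median of all genes tested, -0.022. The NF-κB list lies wholly below 0 with a median of -0.47, and the apoptosome and caspase list is centred near 0.

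The labelled cell type was checked against marker genes. All 8 T and iNKT cell markers with a value were above the filter on every array, and Zbtb16, the gene of the iNKT factor PLZF, ranged from 11.1 to 11.4. Above it were also some markers of immature thymocytes (2 of 7 on every array), B cells (1 to 2 of 5), macrophages (2 of 6), neutrophils (0 to 1 of 6) and dendritic cells (1 to 3 of 5). Of the 5 genes listed as stromal and epithelial, 4 were above it, the collagen genes at 5.02 to 5.64 and Pecam1 at 8.62 to 9.13. Pecam1 differed by 0.48 without passing (limma adjusted p = 0.116), and Epcam lay below the filter at 3.97 to 4.25. The red cell markers were not analysed here. The summed log2 level of the 5 NK cell markers was 28.9 to 29.3 in CD4-Vα14Tg and 32.8 to 33.5 in WT cells. Of these 5, 3 were above the filter on the CD4-Vα14Tg arrays and 4 on the WT arrays. Klrb1c, Fcer1g and Ncr1, which iNKT cells with an NK-like program also express, fell 2.72-fold, 2.46-fold and 1.87-fold (limma adjusted p = 0.00326, 0.00823 and 0.0122). Ncr1 read 5.05 and 5.14 in WT cells, near the filter, and lay below it on both CD4-Vα14Tg arrays. It was tested only because its WT values passed the filter, so its call is not independent of that filter. Tyrobp differed by -0.601 without passing (limma adjusted p = 0.126). Eomes lay below the filter and was not tested, and it was higher in CD4-Vα14Tg by 0.191, without overlap. Klrb1c and Fcer1g were, like Bcl2a1a, among the 182 genes called lower, and their part in its difference was not tested. The macrophage marker Itgam rose 1.59-fold (limma adjusted p = 0.0438) from values that were near the filter in WT cells, while the summed level of its list was 29.0 to 29.3 against 28.6 to 29.1.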

How the data were processed

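Total RNA of iNKT cells was measured on 4 arrays. The authors deposited log2 values per probe set, made with RMA and Affymetrix Power Tools per the submitters' processing notes (versions, options and build not given in the sources used here). RMA equalises the distribution of values over arrays, which hides any difference in total RNA per cell. Of 41345 probe sets, 23521 had 1 symbol in the platform annotation, 1814 several and 16010 none. For a gene with several, the probe set with the highest mean was kept. Genes at or above the 40th percentile of single-symbol probe sets on at least 2 arrays were tested with limma 3.58.1 in R 4.3.3 (lmFit, eBayes, two-sided), without blocking on replicate number. Intervals are limma's 95% intervals. The script was tested on simulated data.

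The members and lists were chosen with earlier results of these data known. Of 161 list entries, 135 had a value. All members, all tested further BCL2 family genes and, per other list, the genes past the threshold or else the 2 with the largest test statistics were named. Alternatives covered the filter, normalization, variance model, probe set choice, replicate block and each array left out. Promoter windows came from RefSeq (GRCm38.p6). The number of arrays limits the precision. Tables and plots were made with Python 3.11.15, pandas 2.3.3, numpy 2.4.6 and matplotlib 3.10.9.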

Additional observations from a re-analysis of the deposited data

How the results depend on the processing

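The direction and call of Bcl2a1a were the same under all 13 alternatives tried (limma adjusted p from 0.00209 to 0.0416). The replicate numbers are not stated to pair the arrays. Across 13602 genes, which are not replicates, the gap between replicates 1 and 2 correlated at 0.26 between genotypes. With the replicate block, Bcl2 (-0.77, limma adjusted p = 0.00756) and Bcl2l11 (-0.79, limma adjusted p = 0.0240) passed besides Bcl2a1a, giving 3 members called lower. The block leaves less information per gene on the spread, so its p-values rest more on the variance shared over genes. For Bcl2l11, replicate 1 was the higher array in CD4-Vα14Tg and the lower one in WT. With that block 252 genes were higher and 422 lower, against 83 and 182 in the main fit. Of the pathway genes 1 was higher and 7 lower with the block, against 0 and 2 in the main fit. Each probe set tested on its own gave 167 probe sets higher and 246 lower, and all named probe sets together gave 160 higher and 242 lower. These settings count probe sets, of which a gene can have several, so they are not counts of genes. Trend and robust options gave 1 pathway gene higher and 4 lower, and no filter and quantile normalization gave 1 lower each. Leaving out 1 array at a time, the genes called higher numbered 52 to 74 and those lower 101 to 147: 52 higher and 117 lower without CD4-Vα14Tg replicate 1, 110 lower without CD4-Vα14Tg replicate 2, and 101 lower without WT replicate 2. The pathway genes lower numbered 0 to 2. The anti-apoptotic median, -0.52, ran from -0.62 to -0.39 with 1 array left out, and was -0.47 with quantile normalization and -0.36 with probe sets averaged. Bad ran from -0.17 to 0.031 and Bnip3 from -0.32 to 0.0015 with 1 array left out, both changing sign. No other member changed its direction or its side of the threshold. The causes were not tested.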

Other observations

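Ratios between members that bind each other were computed within each array, relative to the mean of the WT arrays, on the log2 scale; the 6 pairs were chosen after the data were seen. The ratio of Bcl2 to Bcl2l11 was -0.38 and 0.43 on the CD4-Vα14Tg arrays and -0.18 and 0.18 on the WT arrays. The groups overlapped, and the change was 0.02. The ratio of Mcl1 to Bcl2l11 was 0.52 and 0.53 against 0.14 and -0.14, a change of 0.53 without overlap, and that of Bcl2l1 to Bcl2l11 changed by 0.68, also without overlap. For Bcl2a1a the ratio to Bcl2l11 changed by -0.20 with overlap, and the ratio to Pmaip1 changed by -1.22 without overlap (-0.99 and -1.45 against 0.16 and -0.16). The ratio of Mcl1 to Pmaip1 changed by -0.49 with overlap. With 2 arrays against 2, the smallest p of the two-sided exact permutation test is 0.333, which the 3 ratios without overlap reached (Benjamini-Hochberg adjusted exact p = 0.667 over the 6), so none of them could pass a threshold of 0.05.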
